A study of Mus musculus with 61 samples.

Results

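The comparison described here sets adipose tissue of AJ mice against adipose tissue of NOD mice, both fed a high-fat, high-sugar diet that the labels give as 45 percent fat. It uses the 7 AJ and 8 NOD libraries among the 61 libraries of the series, chosen by the strain name in each sample's title, and every gene that passed a filter on low counts. AJ (A/J) and NOD (nonobese diabetic) are inbred laboratory strains, and both belong to the 8 strains from which the Diversity Outbred stock was bred and which the series covers. No other treatment, allele or transgene is given for either strain, and fat depot, sex and age are missing from the labels. RNA was purified on poly(A) beads before library construction, with a spike-in control added. Nothing in the labels says that the replicates of a strain came from separate mice, so the p-values measure a spread between samples. That spread was estimated within strains over all 61 libraries of the 8 strains, not from the AJ and NOD libraries alone.

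White adipose tissue stores fatty acids as triglyceride in adipocytes and releases them by lipolysis. Between the adipocytes lie progenitors, vessels, nerve endings and immune cells, among them macrophages and mast cells. The NOD strain is known for spontaneous autoimmune diabetes, to which its major histocompatibility complex (MHC) haplotype contributes, and AJ for a defect in the membrane repair gene Dysf and for resistance to some effects of high-fat feeding. Transcript differences between inbred strains can follow from sequence variants at the gene itself, from variants elsewhere, or from a different mix of cells. In bulk tissue, fewer cells of a type and less RNA per cell cannot be told apart.

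Total counts ran from 36208027 to 44339216 in AJ and from 33715941 to 48392024 in NOD. Levels are given as CPM, the usual depth-normalised count, scaled between libraries by the trimmed mean of M-values (TMM). Marker sums and the Xist level are left unscaled, as CPM of all counts in the library. The 23 mature adipocyte markers in the table summed to 38800 to 64600 CPM in AJ and 42200 to 67200 CPM in NOD, so the labelled tissue showed its defining transcripts in every library. Skeletal muscle markers (24 genes in the table) summed to 2315 CPM in AJ replicate 3 and 4417 CPM in AJ replicate 4, against 82.0 to 122.6 CPM in the other AJ libraries and 55.3 to 129 CPM in NOD. Results are therefore given also without AJ replicates 3 and 4. The 4 male genital duct markers in the table summed to 1583 CPM in NOD replicate 6 and to at most 7.06 CPM in any other of the 15 libraries. Liver markers reached 2345 CPM in AJ replicate 8 and 2230 CPM in NOD replicate 6. Xist, the RNA that coats the inactive X chromosome, was at 487 to 630 CPM in AJ replicates 2, 3 and 4 and NOD replicates 1 to 4, and at 0.356 to 6.75 CPM in the other 8 libraries. Both AJ libraries with muscle transcripts thus had high Xist. Of 117 genes named here, 10 had no overlap between high-Xist and other libraries in either strain, in the same direction in both, as had 901 of all 18603 genes tested.

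Of 18603 genes tested, 2490 were called at an adjusted p under 0.05 in edgeR's quasi-likelihood test (13.4%). The calls were almost evenly divided, with 1256 genes higher in AJ (6.75%) and 1234 lower (6.63%). A difference of at least 2-fold was found in 1086 of the called genes (5.84% of those tested). Without AJ replicates 3 and 4 the number called was 1812 (9.74%), and 1646 of the 2490 calls were among them. With AJ and NOD fitted alone, the other strains lent no estimate of the spread and 3865 genes were called (20.8%). Of these 1940 were higher in AJ and 1925 lower. List counts in that fit are given below where they differ by more than 1.5 times. For 1215 genes (6.53%) the range of the 7 AJ libraries did not overlap that of the 8 NOD libraries, and 1112 of these were called (5.98% of those tested). All fold changes below are AJ minus NOD on the log2 scale with their standard error (SE), so a positive value means a higher level in AJ.

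**Figure D1:**
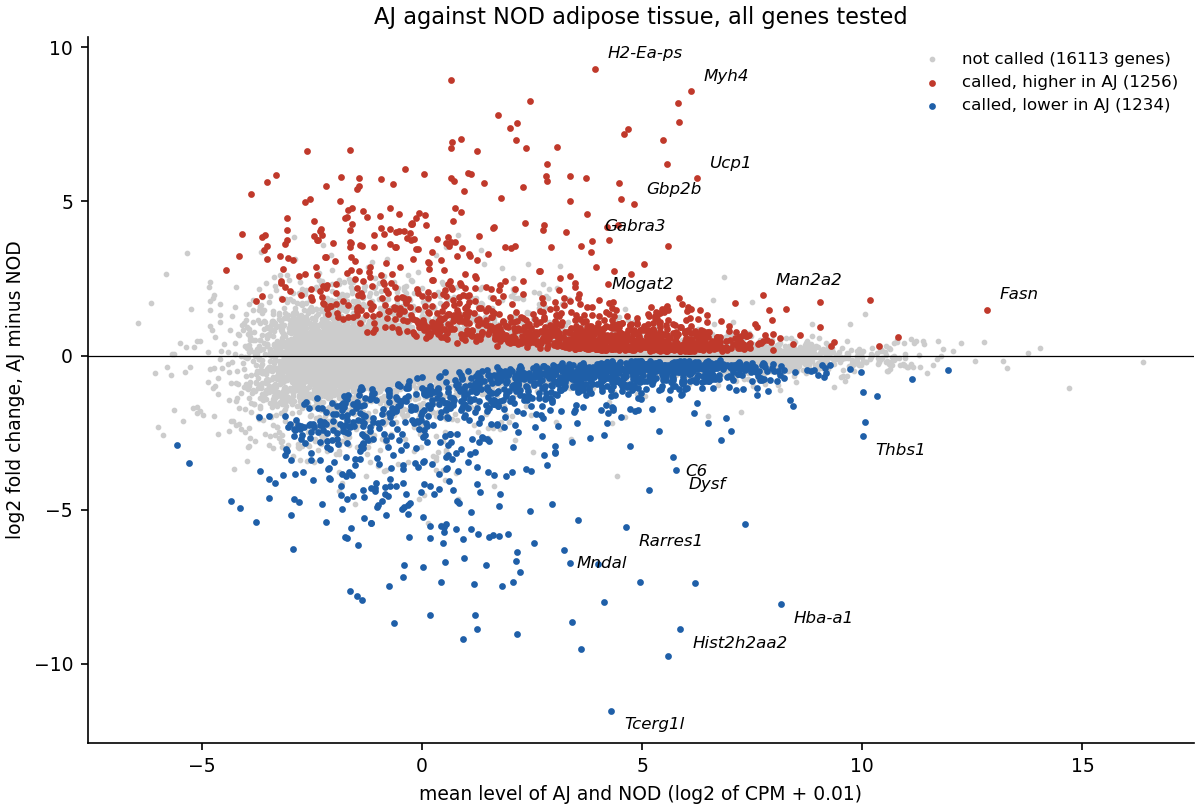
Mean level of each gene in AJ and NOD (x axis, log2 CPM) against its log2 fold change, AJ minus NOD (y axis). Each point is 1 of 18603 genes, with the 1256 called higher in AJ in red, the 1234 called lower in blue and the rest in grey. Named points run from H2-Ea-ps at 9.30 to Tcerg1l at −11.52.

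The genes with the smallest p-values included loci at which these strains are known to differ. Dysf (GRCm38 chr6:84008590-84211060) encodes dysferlin, which reseals torn plasma membranes, and carries a known insertion in AJ. Dysf ran from 6.49 to 9.06 CPM in AJ (median 7.71) and from 84.1 to 116 CPM in NOD (median 100.3). No NOD library came near the AJ range (log2 fold change −3.72 ± 0.14 (SE), adjusted p = 2.21e-29), and AJ was the lowest of the 8 strains, since the means of the other 6 lay between 63.3 and 119 CPM. Glo1 (chr17:30592866-30612659) encodes glyoxalase 1, which clears the reactive sugar by-product methylglyoxal, and lies in a segment that is duplicated in some inbred strains. AJ libraries held 200.0 to 224 CPM of Glo1 (median 213), against 55.5 to 77.6 CPM in NOD (median 67). The libraries did not overlap (log2 fold change 1.70 ± 0.09 (SE), adjusted p = 3.55e-23). Its neighbour Btbd9, an adaptor for protein ubiquitination, was also higher in AJ, with 39.1 to 45.1 CPM in AJ (median 41.6) and 22.9 to 25 CPM in NOD (median 23.3) (log2 fold change 0.83 ± 0.06 (SE), adjusted p = 5.11e-17). Dnah8, an axonemal dynein gene of the same segment, was not called (log2 fold change 0.80 ± 0.60 (SE), adjusted p = 0.442). The mannosidase gene Man2a2, which trims N-linked sugar chains, ran from 279 to 395 CPM in AJ and from 79.4 to 106 CPM in NOD (log2 fold change 1.96 ± 0.09 (SE), adjusted p = 6.81e-25). It overlaps Hddc3, and the counting of reads in the overlap is not stated.

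On a list of genes with alleles known in AJ or NOD, 24 were tested, of which 4 were called higher in AJ and 3 lower, beside 13.4% of all genes called in either direction. The list was drawn up from known differences of these strains. Besides Glo1, Btbd9, Dysf and the MHC and Ly49 genes described further on, these were Apobec3 and Il3ra. Apobec3, an antiviral cytidine deaminase, was at 20.6 to 26.1 CPM in AJ (median 22.5) and 14.3 to 16.9 CPM in NOD (median 15.9), with no overlap (log2 fold change 0.56 ± 0.16 (SE), adjusted p = 0.0114). Il3ra, the interleukin 3 receptor alpha chain, went the other way (log2 fold change −0.67 ± 0.14 (SE), adjusted p = 0.000264), and its ranges of 3.37 to 6.59 CPM in AJ and 6.37 to 7.89 CPM in NOD met at the edges. Nnt, the mitochondrial transhydrogenase that is defective in a B6 substrain, was not called (log2 fold change −0.08 ± 0.15 (SE), adjusted p = 0.801). Nor were the aryl hydrocarbon receptor gene Ahr (log2 fold change 0.23 ± 0.15 (SE), adjusted p = 0.343), the Legionella sensor gene Naip5 (log2 fold change −0.38 ± 0.23 (SE), adjusted p = 0.329) and the interferon-inducible Ifi202b (log2 fold change −0.25 ± 0.39 (SE), adjusted p = 0.762). For these 4 genes the AJ and NOD ranges overlapped, and Naip5 shares reads with other genes.

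Among genes of at least 5 CPM in the higher strain and with no overlap between libraries, the largest fold changes included those of the following single genes, which belong to no common list. Tcerg1l stood at 15.1 to 60.8 CPM in NOD (median 40.2) and at 0 to 0.0787 CPM in AJ (median 0). Tcerg1l is a transcription elongation regulator-like gene, and its 7 AJ libraries held 3 counts in all against 12263 counts in NOD, a ratio of 3870 (95% interval 1320 to 18800, counting error only). No other strain mean exceeded 0.447 CPM, so NOD stood alone. Gpr50, an orphan relative of the melatonin receptors on the X chromosome, was at most 0.0664 CPM in AJ and 1.12 to 26.2 CPM in NOD (log2 fold change −7.46 ± 1.14 (SE), adjusted p = 1.55e-06). Slc5a7, the choline transporter of cholinergic nerve endings, was at 0.506 to 6.03 CPM in AJ (median 3.63) and 12.6 to 156 CPM in NOD (median 58.3) (log2 fold change −4.36 ± 1.15 (SE), adjusted p = 0.00553). Its levels split by Xist in both strains, since AJ replicates 2, 3 and 4 held 0.506 to 1.86 CPM and the other AJ libraries 3.63 to 6.03 CPM, while NOD replicates 1 to 4 held 12.6 to 17.6 CPM and NOD replicates 5 to 8 held 99.1 to 156 CPM. With Xist as a covariate the log2 fold change was −4.20 (adjusted p = 0.000702). The fold change of Gpr50 was −6.75 without NOD replicate 6.

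Higher in AJ were Rimbp2, a synaptic scaffold gene, Gabra3, a GABA-A receptor subunit, Unc5a, a netrin receptor, and Disp2, a relative of the sterol-sensing Dispatched proteins. Rimbp2 ran from 1.24 to 9.61 CPM in AJ (median 7.82) and from 0.0562 to 0.627 CPM in NOD (median 0.332) (log2 fold change 4.12 ± 0.80 (SE), adjusted p = 0.000112). AJ libraries held 14.9 to 48.6 CPM of Gabra3 (median 22.6), against 0.599 to 3.68 CPM in NOD (median 1.82) (log2 fold change 3.71 ± 0.39 (SE), adjusted p = 4.95e-11). Gabra3 was higher in the high-Xist libraries of both strains with no overlap, and with Xist as a covariate its log2 fold change was 3.85. For Unc5a the levels were 18 to 36.4 CPM in AJ (median 27.1) and 1.23 to 3.53 CPM in NOD (median 2.77) (log2 fold change 3.35 ± 0.44 (SE), adjusted p = 3.06e-08). In none of these did an AJ library reach down to the NOD range. Disp2 stood at 4.41 to 11.9 CPM in NOD (median 6.93) and at 18 to 87.6 CPM in AJ (median 63.1) (log2 fold change 2.98 ± 0.38 (SE), adjusted p = 1.67e-08). AJ had the highest strain mean of all 8 for Disp2 and for Rimbp2, while B6 stood above it for Gabra3 (28.3 CPM) and Unc5a (50 CPM).

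Lower in AJ by this rule were also Rarres1, Col4a6 and Bst1. Rarres1 ran from 0.418 to 1.6 CPM in AJ (median 0.908) and from 24.3 to 92.7 CPM in NOD (median 37.2) (log2 fold change −5.57 ± 0.50 (SE), adjusted p = 4.51e-13). Rarres1 is a retinoic acid-induced membrane protein. AJ libraries held 0.221 to 0.984 CPM of Col4a6 (median 0.551), against 10.7 to 21.3 CPM in NOD (median 14.7) (log2 fold change −4.81 ± 0.49 (SE), adjusted p = 2.1e-11). Col4a6 encodes a chain of basement membrane collagen IV and lies on the X chromosome, and AJ was the lowest of the 8 strains. Bst1, an ADP-ribosyl cyclase of stromal and myeloid cells, was at 0.0844 to 0.538 CPM in AJ (median 0.209) and 3.56 to 8.34 CPM in NOD (median 6.8) (log2 fold change −4.88 ± 0.52 (SE), adjusted p = 1.17e-10), and again AJ was the lowest strain. Hvcn1, a voltage-gated proton channel of phagocytes and B cells, was higher in AJ, with 19.7 to 57.6 CPM in AJ (median 20.4) and 2.05 to 5.06 CPM in NOD (median 3.87) (log2 fold change 2.86 ± 0.29 (SE), adjusted p = 2.87e-11). It shares reads with other genes, meaning that its count estimates were not whole numbers in most libraries. Ahcy, the enzyme that hydrolyses S-adenosylhomocysteine, also shares reads and was at 36.5 to 58 CPM in AJ (median 43.7) and 5.24 to 9.38 CPM in NOD (median 7.21) (log2 fold change 2.65 ± 0.19 (SE), adjusted p = 9.59e-17). Its NOD level was close to the lowest other strain mean (7.17 CPM in 129) and its AJ level to the highest (47.7 CPM in B6).

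**Figure D2:**
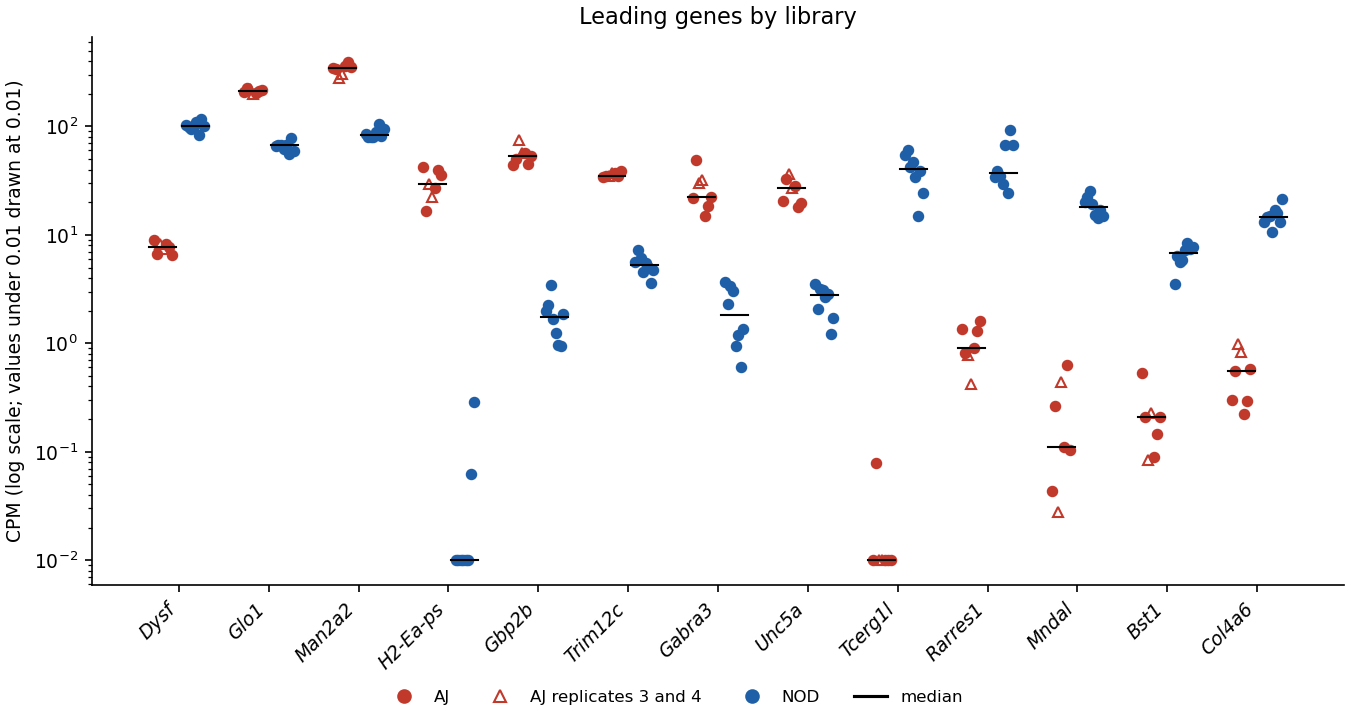
CPM (y axis, log scale) of 13 genes in each of the 7 AJ libraries (red, with replicates 3 and 4 as open triangles) and the 8 NOD libraries (blue). Black bars are medians, and in each gene shown the 2 strains occupy separate ranges, from Dysf (AJ at most 9.06 CPM, NOD at least 84.1 CPM) to Col4a6 (AJ at most 0.984 CPM, NOD at least 10.7 CPM).

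Some of the largest fold changes fell on near-identical gene copies. Hist2h2aa1 and Hist2h2aa2 are copies of a histone H2A gene, and reads from either can be assigned to the other. Hist2h2aa1 ran from 55.8 to 115 CPM in AJ (median 90.8) and from 5.5 to 10.6 CPM in NOD (median 7.29) (log2 fold change 3.55 ± 0.19 (SE), adjusted p = 1.29e-22). Hist2h2aa2 differed in the opposite direction, with 0 to 0.99 CPM in AJ (median 0.0844) and 106 to 139.8 CPM in NOD (median 113) (log2 fold change −8.87 ± 0.78 (SE), adjusted p = 1.42e-13; −10.00 without AJ replicate 1). Summed over both, the histone transcripts were at 89.1 ± 21.6 CPM (SD, n = 7) in AJ and 123 ± 10.4 CPM (SD, n = 8) in NOD. The alpha globin copies showed no such opposite change. Hba-a1 was at 0.816 to 6.03 CPM in AJ and 428 to 662 CPM in NOD (log2 fold change −8.06 ± 0.69 (SE), adjusted p = 5.07e-14), and Hba-a2 was not called (log2 fold change −0.22 ± 0.29 (SE), adjusted p = 0.716). Alpha globin as a sum was 670.5 ± 256 CPM in AJ and 1348 ± 239 CPM in NOD. Of the beta globin genes, Hbb-bt was lower in AJ (log2 fold change −2.01 ± 0.35 (SE), adjusted p = 1.86e-05) and Hbb-bs was not called (log2 fold change −0.67 ± 0.30 (SE), adjusted p = 0.143), and their sum was 629 ± 268 CPM in AJ and 1116 ± 219 CPM in NOD. Globin mRNA marks red blood cells left in the tissue. For the single copies, the split of reads between copies and a difference in expression cannot be told apart. Tpm3-rs7, a copy related to the tropomyosin gene Tpm3, also shares reads and was at 0 to 1.46 CPM in AJ (median 0.184) and 47.1 to 75.7 CPM in NOD (median 62.4) (log2 fold change −7.35 ± 0.45 (SE), adjusted p = 1.11e-19; −8.39 without AJ replicate 1).

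The MHC on chromosome 17 held opposite differences in neighbouring genes. Class II molecules present peptides to CD4+ T cells, and the alpha chain of the I-E molecule is encoded by the gene listed as H2-Ea-ps, which several mouse haplotypes do not express. H2-Ea-ps ran from 16.8 to 41.9 CPM in AJ (median 29.7) and from 0 to 0.288 CPM in NOD (median 0). In NOD 6 of 8 libraries were at 0, and the fold change was among the largest (log2 fold change 9.30 ± 0.98 (SE), adjusted p = 5.6e-11; 11.48 without NOD replicate 8). The partner beta chain gene H2-Eb1 was not called (log2 fold change −0.83 ± 0.31 (SE), adjusted p = 0.0662), nor were the I-A chain genes H2-Aa (log2 fold change −0.36 ± 0.26 (SE), adjusted p = 0.431) and H2-Ab1 (log2 fold change −0.17 ± 0.28 (SE), adjusted p = 0.779). H2-Ea-ps was thus the 1 gene called among 16 tested on the class II and antigen presentation list, whose median log2 fold change was −0.04, beside 0.00181 over all genes. The share called was 6.25%, beside 13.4% over all genes. In the fit of AJ and NOD alone 2 were higher and 1 was lower (18.8%, beside 20.8% over all genes in that fit).

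Class I molecules present peptides to CD8+ T cells, and 27 genes of class I and peptide loading were tested. Of these, 6 were higher in AJ and 4 lower, and without AJ replicates 3 and 4 the counts were 1 and 3. The share called was 37% and then 14.8%, beside 13.4% and 9.74% over all genes. The Qa-region gene H2-Q2 was at 0 to 0.0787 CPM in AJ (median 0.0215) and 0.812 to 4.02 CPM in NOD (median 2.3) (log2 fold change −5.93 ± 0.88 (SE), adjusted p = 7.42e-07), so NOD stood above AJ in every library. H2-Q6 did the reverse, with 35.8 to 91.9 CPM in AJ (median 52.2) and 13.7 to 33.2 CPM in NOD (median 23.5) (log2 fold change 1.22 ± 0.23 (SE), adjusted p = 9.67e-05). H2-Q5, outside the list, was at 4.34 to 10.7 CPM in AJ (median 5.84) and 0.262 to 0.945 CPM in NOD (median 0.614) (log2 fold change 3.52 ± 0.30 (SE), adjusted p = 4.19e-14). The classical gene H2-D1 was lower in AJ with overlapping ranges (log2 fold change −0.52 ± 0.13 (SE), adjusted p = 0.00251). In NOD it was at 1442 to 1518 CPM in the high-Xist libraries and 838 to 941.5 CPM in the others. In AJ these ranges were 825 to 926 CPM and 668 to 856 CPM. Outside the high-Xist libraries the strains thus overlapped. With Xist as a covariate the log2 fold change of H2-D1 was −0.49 (adjusted p = 0.00176). H2-Q6 and H2-Q4 were higher in the high-Xist libraries of both strains with no overlap. With that covariate both stayed called (1.25 and 0.61). Class I genes are near-identical and vary between haplotypes, and all class I genes named here but H2-Q2 share reads. The peptide pump gene Tap1 (log2 fold change 0.54 ± 0.15 (SE), adjusted p = 0.0064) and H2-Q4 (log2 fold change 0.61 ± 0.16 (SE), adjusted p = 0.00637) were no longer called without AJ replicates 3 and 4 (0.34, adjusted p = 0.161 and 0.44, adjusted p = 0.105). B2m, the common light chain, was not called (log2 fold change 0.18 ± 0.12 (SE), adjusted p = 0.397).

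Guanylate-binding proteins are interferon-induced GTPases that attack intracellular pathogens, and their genes form clusters on chromosomes 3 and 5. Gbp2b and Gbp2 lie side by side on chromosome 3, and only the first was called between AJ and NOD. The 150 bases before each start site are printed to show what stands upstream of a pair with such different values. They are reference sequence from RefSeq (build GRCm38.p6, plus strand), not AJ or NOD sequence. Capitals mark matches to the interferon-stimulated response element core (GAAA, any 2 bases, GAAA), searched on both strands.
Gbp2b chr3:142594697-142594846: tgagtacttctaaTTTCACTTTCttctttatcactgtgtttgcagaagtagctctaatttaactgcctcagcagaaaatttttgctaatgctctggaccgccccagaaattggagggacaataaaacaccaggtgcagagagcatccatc
Gbp2 chr3:142620513-142620662: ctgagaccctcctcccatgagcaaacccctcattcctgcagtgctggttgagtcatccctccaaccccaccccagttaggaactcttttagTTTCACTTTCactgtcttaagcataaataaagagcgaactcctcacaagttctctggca
Both windows hold 1 match, on the minus strand, 137 bases before the start of Gbp2b and 59 bases before that of Gbp2. Of 27025 promoter windows of 300 bases, 3.49% held a match.

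Gbp2b ran from 44.3 to 75.1 CPM in AJ (median 53.6) and from 0.945 to 3.45 CPM in NOD (median 1.76) (log2 fold change 4.91 ± 0.28 (SE), adjusted p = 6.14e-21). All AJ libraries were above all NOD libraries, and AJ had the highest mean of the 8 strains. Its neighbour Gbp2 was at 94.9 to 117 CPM in AJ (median 108) and 72.2 to 159 CPM in NOD (median 106), with no call (log2 fold change −0.03 ± 0.22 (SE), adjusted p = 0.964). Both share reads. Gbp3 of the same cluster was higher in AJ (log2 fold change 0.91 ± 0.23 (SE), adjusted p = 0.00307), a call lost without AJ replicates 3 and 4 (0.62, adjusted p = 0.0892). On chromosome 5, AJ libraries held 63.5 to 165 CPM of Gbp4 (median 73.8), against 16.5 to 35.7 CPM in NOD (median 23.1) (log2 fold change 1.87 ± 0.26 (SE), adjusted p = 2.15e-07). Gbp4, which shares reads, kept its call without the libraries that carry muscle transcripts (1.51, adjusted p = 3.45e-05). Gbp6 and the overlapping predicted gene Gm43302 moved in opposite directions, with −1.09 ± 0.22, adjusted p = 0.00017 for Gbp6 and 5.09 ± 0.75, adjusted p = 6.13e-07 for Gm43302. Their sum was 66.3 ± 21.0 CPM in AJ and 47.5 ± 10.2 CPM in NOD, and how reads were divided between them is not stated.

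A wider list of interferon response genes, which holds Gbp2 and Gbp3 but not Gbp4 or Gbp2b, gave counts that depended on the fit. Of 33 genes tested, 4 were higher in AJ and none lower, at a median of 0.31, beside 6.75% higher over all genes. With AJ and NOD fitted alone 12 were higher and none lower (36.4% called, beside 20.8% over all genes in that fit). The added ones were Ddx58, Ifih1, Irf1, Irf9, Oas1a, Rtp4, Stat2 and Usp18. The others called were Ifi44 (log2 fold change 1.41 ± 0.42 (SE), adjusted p = 0.0159), Iigp1 (log2 fold change 1.38 ± 0.44 (SE), adjusted p = 0.0243) and Igtp (log2 fold change 0.94 ± 0.28 (SE), adjusted p = 0.016), of which the last 2 are immunity-related GTPases. None of the 4 was called without AJ replicates 3 and 4, and Igtp shares reads. Without AJ replicate 3 alone Iigp1 fell to 0.75 and Igtp to 0.57 on the log2 scale, both uncalled. The Iigp1 call also ended without NOD replicate 5 (1.29) or NOD replicate 7 (1.29). Gbp3, Ifi44 and Iigp1 were higher in the high-Xist libraries of both strains with no overlap, and with Xist as a covariate all 4 were called, Ifi44 at 1.46 and Iigp1 at 1.36.

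Other clustered immune genes differed sharply in one direction or the other. Mndal and Mnda belong to the Ifi200 cluster of nuclear DNA sensors on chromosome 1. Mndal stood at 14.4 to 25.6 CPM in NOD (median 18) and at 0.0281 to 0.632 CPM in AJ (median 0.111) (log2 fold change −6.30 ± 0.48 (SE), adjusted p = 6.11e-16). Mnda was lower in AJ as well, with 2.75 to 6.48 CPM in AJ (median 4.32) and 7.54 to 14.8 CPM in NOD (median 9.44) (log2 fold change −1.20 ± 0.28 (SE), adjusted p = 0.00177). On chromosome 7, the giant interferon-inducible GTPase gene Gvin1 was at 0 to 0.947 CPM in AJ (median 0.262) and 6.05 to 18.6 CPM in NOD (median 9.79) (log2 fold change −5.03 ± 0.47 (SE), adjusted p = 1.34e-12; −5.63 without AJ replicate 1). The tripartite-motif genes of that chromosome split, since Trim30d was lower in AJ (log2 fold change −3.91 ± 0.54 (SE), adjusted p = 1.59e-07) and Trim12c higher, with 34.3 to 38.7 CPM in AJ (median 35.1) and 3.59 to 7.19 CPM in NOD (median 5.29) (log2 fold change 2.76 ± 0.22 (SE), adjusted p = 2.6e-15). All 5 share reads, and for each of them the AJ and NOD ranges were separate.

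Receptors of innate immunity differed in single genes. Klra8 is listed as the gene of the natural killer cell receptor Ly49H. Its 7 AJ libraries held 2 counts in all and its 8 NOD libraries 458, a ratio of 217 (95% interval 59.6 to 1790, counting error only). NOD had the highest strain mean of Klra8, 1.47 CPM, the next being 0.228 CPM in B6. How reads of other Ly49 genes were assigned on the reference genome is not stated, so these counts do not show that NOD expresses Ly49H itself. Nlrp1c-ps, a pseudogene of the Nlrp1 inflammasome cluster, held 123 counts in AJ and 2 in NOD, a ratio of 65 (17.6 to 543). Nlrp1a, the neighbouring sensor gene, was lower in AJ, with 0.366 to 0.754 CPM in AJ (median 0.642) and 2.8 to 6.47 CPM in NOD (median 4.12) (log2 fold change −2.82 ± 0.46 (SE), adjusted p = 5.98e-06), and Nlrp1b was not called (log2 fold change 0.30 ± 0.40 (SE), adjusted p = 0.718). Naip2, which recognises a bacterial secretion rod protein, was at 4.43 to 7.08 CPM in AJ (median 5.26) and 7.59 to 16.9 CPM in NOD (median 11.8) (log2 fold change −1.08 ± 0.27 (SE), adjusted p = 0.00318). Naip1 was lower in AJ too (log2 fold change −2.63 ± 0.81 (SE), adjusted p = 0.021), but not without AJ replicates 3 and 4 (−2.27, adjusted p = 0.107). On the inflammasome and Naip list 1 gene of 17 was higher in AJ and 3 were lower (23.5% called, beside 13.4% over all genes). Naip1 and Naip2 share reads.

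Mast cell transcripts were higher in AJ. Mast cells are resident granulocytes that store proteases and histamine, depend on the receptor Kit, and degranulate through the high-affinity IgE receptor. All 7 mast cell genes on a list of dendritic, neutrophil and mast cell markers were called higher, and in 5 of them the libraries did not overlap, beside 6.75% called higher and 6.53% not overlapping over all genes. The other 15 tested members of that list had 1 gene higher (Clec9a, 0.62 ± 0.18, adjusted p = 0.0131) and 1 lower, with a median of −0.57 against 1.53 for the mast cell genes. The mast cell genes were set apart from the rest of the list with their values known. Their sum was 80.1 to 123 CPM in AJ (median 90.3) and 27.1 to 50.4 CPM in NOD (median 38.3).

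The granule protease genes had the clearest difference. Cpa3 ran from 10.2 to 26.1 CPM in AJ (median 12) and from 2.4 to 5.73 CPM in NOD (median 3.99), where Cpa3 encodes carboxypeptidase A3 (log2 fold change 1.86 ± 0.32 (SE), adjusted p = 1.98e-05). The chymase genes followed. AJ libraries held 13.8 to 28.6 CPM of Mcpt4 (median 16), against 3.22 to 7.93 CPM in NOD (median 6.02) (log2 fold change 1.67 ± 0.37 (SE), adjusted p = 0.000791). Cma1 was at 7.12 to 18.1 CPM in AJ (median 10.5) and 2.22 to 5.44 CPM in NOD (median 3.9) (log2 fold change 1.53 ± 0.32 (SE), adjusted p = 0.000422). Tpsb2 stood at 3.91 to 6.44 CPM in NOD (median 4.76) and at 10.2 to 16.1 CPM in AJ (median 12.4), where Tpsb2 encodes a tryptase (log2 fold change 1.40 ± 0.29 (SE), adjusted p = 0.000326). In all 4 genes the lowest AJ library lay above the highest NOD library. Kit, the stem cell factor receptor, was at 28.3 to 37.6 CPM in AJ (median 32) and 13.9 to 24.2 CPM in NOD (median 18.3) (log2 fold change 0.84 ± 0.20 (SE), adjusted p = 0.00161). The IgE receptor chains were near the limit of detection, with Fcer1a at 0.421 to 1.15 CPM in AJ (median 0.839) and 0.0524 to 0.444 CPM in NOD (median 0.213) (log2 fold change 1.88 ± 0.55 (SE), adjusted p = 0.0137) and Ms4a2 at 0.438 to 1.17 CPM in AJ (median 0.99) and 0.0516 to 0.636 CPM in NOD (median 0.297) (log2 fold change 1.45 ± 0.40 (SE), adjusted p = 0.00875).

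Il1rl1, the interleukin 33 receptor that mast cells, regulatory T cells and innate lymphoid cells carry, was also higher in AJ, with 8.49 to 15.2 CPM in AJ (median 11.8) and 4.11 to 5.51 CPM in NOD (median 4.52) and no overlap (log2 fold change 1.32 ± 0.23 (SE), adjusted p = 2.72e-05). Without AJ replicates 3 and 4, Cpa3, Mcpt4, Cma1, Tpsb2 and Kit stayed called at 1.82, 1.65, 1.48, 1.41 and 0.81, while Fcer1a was not called (1.71, adjusted p = 0.0547). Ms4a2 lost its call without NOD replicates 6 and 8 (1.14). Cpa3 and Cma1 moved with Xist in both strains. In AJ the libraries with high Xist (replicates 2, 3 and 4) held 14.2 to 26.1 CPM of Cpa3 and the other 4 held 10.2 to 12 CPM. In NOD the libraries with high Xist (replicates 1 to 4) held 4.68 to 5.73 CPM of Cpa3 and the other 4 held 2.40 to 3.31 CPM. For Cma1 these ranges were 11.3 to 18.1 and 7.12 to 10.5 CPM in AJ, and 4.29 to 5.44 and 2.22 to 3.50 CPM in NOD. With Xist as a covariate the log2 fold change of Cpa3 was 1.92 (adjusted p = 5.77e-08), and the dendritic, neutrophil and mast cell list still had 8 genes higher in AJ. AJ was not the highest of the 8 strains in these proteases, since NZO means reached 18 CPM for Cpa3 and 20.5 CPM for Mcpt4.

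Reference promoters of the mast cell genes are shown because these genes moved together and GATA factors are known regulators of mast cell genes. Of the 6 mast cell genes with a RefSeq window (GRCm38.p6), 3 held the motif AGATAA on either strand, as did 11.4% of 27025 windows of 300 bases. Printed are the 150 bases before the start of those 3, 5′ to 3′ on the gene's strand, which is minus for each, with matches in capitals.
Cpa3 chr3:20242182-20242331: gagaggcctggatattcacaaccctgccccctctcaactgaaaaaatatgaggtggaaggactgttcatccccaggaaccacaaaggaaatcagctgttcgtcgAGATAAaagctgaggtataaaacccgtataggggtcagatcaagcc
Fcer1a chr1:173227230-173227379: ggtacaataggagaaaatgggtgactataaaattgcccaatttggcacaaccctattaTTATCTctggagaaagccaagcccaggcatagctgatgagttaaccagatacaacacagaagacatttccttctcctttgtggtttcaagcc
Ms4a2 chr19:11623720-11623869: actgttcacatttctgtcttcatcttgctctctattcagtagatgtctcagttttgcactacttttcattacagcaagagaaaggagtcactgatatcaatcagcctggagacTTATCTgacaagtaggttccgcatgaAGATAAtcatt
Mcpt4, Cma1 and Kit had no match to AGATAA in their windows. Other forms of a GATA site were not searched, so the missing match does not show that such a site is absent. A match is a description of the letters and shows no binding.

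Complement is a cascade of plasma proteins that tags and lyses targets, and adipose tissue makes several of its components. Of 24 complement genes tested, 6 were lower in AJ and none higher, at a median of −0.19, and 5 of these 6 had separate ranges. Over all genes 6.63% were called lower and 6.53% had separate ranges. The largest difference was in C6, a component of the membrane attack complex. C6 stood at 60 to 122 CPM in NOD (median 96) and at 4.7 to 15.2 CPM in AJ (median 8.97) (log2 fold change −3.29 ± 0.49 (SE), adjusted p = 8.99e-07). AJ had the lowest C6 mean of the 8 strains, the next being 22.4 CPM in 129. C4b, the main complement C4 gene, was at 515 to 876 CPM in AJ (median 585) and 1033 to 1842 CPM in NOD (median 1409.8) (log2 fold change −1.18 ± 0.29 (SE), adjusted p = 0.00301), and its paralog C4a, known as sex-limited protein, at 0.664 to 7.38 CPM in AJ (median 1.02) and 4.01 to 11.7 CPM in NOD (median 6.44) (log2 fold change −1.79 ± 0.35 (SE), adjusted p = 0.000116). Without AJ replicate 8, the AJ library with the highest C4a level, the log2 fold change of C4a was −2.65. Both share reads. Cfb, factor B of the alternative pathway, was at 118 to 214 CPM in AJ (median 174) and 254 to 351 CPM in NOD (median 308) (log2 fold change −0.80 ± 0.21 (SE), adjusted p = 0.00623). C4a, C4b and Cfb lie together in the MHC.

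The receptor and the regulator on the list differed in the same direction. C5ar1 ran from 13.8 to 21.2 CPM in AJ (median 17.9) and from 29 to 54.6 CPM in NOD (median 34.4), where C5ar1 encodes the receptor for the C5a fragment (log2 fold change −1.12 ± 0.26 (SE), adjusted p = 0.00169). Cd59a, which blocks the membrane attack complex, was at 81.6 to 149 CPM in AJ (median 127) and 156 to 209 CPM in NOD (median 172) (log2 fold change −0.61 ± 0.17 (SE), adjusted p = 0.00725). NOD had the highest mean of all 8 strains for C4b and Cd59a. Cd59a was not called without AJ replicates 3 and 4 (−0.47, adjusted p = 0.0922), and the other 5 complement genes were.

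**Figure D3:**
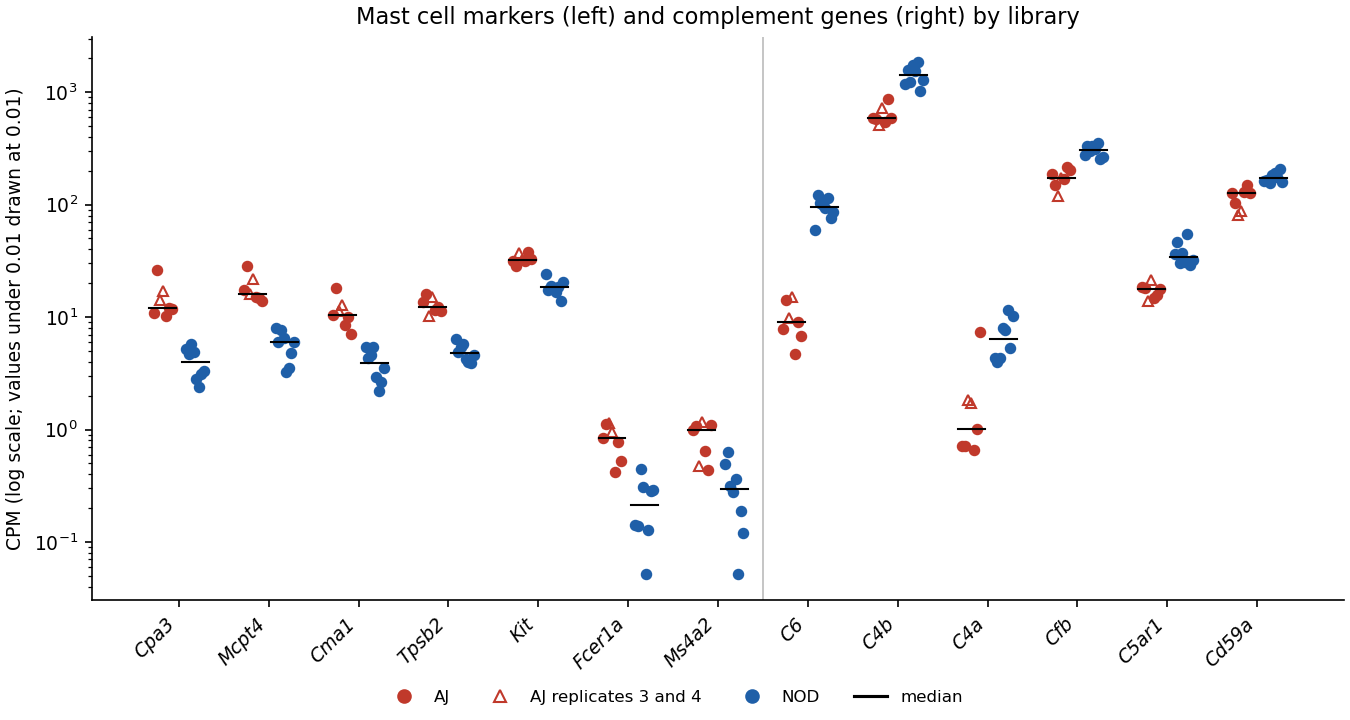
CPM (y axis, log scale) of 7 mast cell genes (left of the grey line) and 6 complement genes (right) in 7 AJ libraries (red, replicates 3 and 4 as open triangles) and 8 NOD libraries (blue), with medians as black bars. The mast cell genes sit higher in AJ, as with Cpa3 at 10.2 to 26.1 CPM against 2.40 to 5.73 CPM, and the complement genes lower, as with C6 at 4.70 to 15.2 CPM against 60 to 122 CPM.

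Other immune cell lists changed in few members. None of 24 macrophage markers was called in edgeR at an adjusted p under 0.05, and their sums of 1190 to 1660 CPM in AJ and 935 to 1630 CPM in NOD overlapped. With AJ and NOD fitted alone 3 macrophage markers were higher in AJ and 1 lower (16.7%, beside 20.8% over all genes in that fit). Of 17 genes of lipid-associated macrophages, Ctsk and Acp5 were called (11.8%, beside 13.4% over all genes), in opposite directions. With AJ and NOD fitted alone 1 of these 17 was higher and 4 were lower (29.4%, beside the same 20.8%). Ctsk, the collagen-degrading cathepsin K, was at 14.4 to 22.8 CPM in AJ (median 22.4) and 3.69 to 11.3 CPM in NOD (median 6.41) (log2 fold change 1.59 ± 0.26 (SE), adjusted p = 4.93e-06). Acp5, an acid phosphatase of osteoclasts and macrophages, was at 104 to 195 CPM in AJ (median 165) and 201 to 302 CPM in NOD (median 274) (log2 fold change −0.79 ± 0.21 (SE), adjusted p = 0.007) and lost its call without AJ replicates 3 and 4 (−0.64, adjusted p = 0.0712). On the T and NK cell list 2 of 30 were higher in AJ and 1 was lower, the T cell receptor constant gene Trac, with 0.62 to 3.71 CPM in AJ (median 0.925) and 2.45 to 7.9 CPM in NOD (median 5.9) (log2 fold change −1.75 ± 0.48 (SE), adjusted p = 0.008). The share called was 10%, beside 13.4% over all genes. In the fit of AJ and NOD alone the counts were 3 higher and 3 lower (20%, near the 20.8% over all genes in that fit).

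Among 28 cytokines and chemokines 2 were called (7.14%, beside 13.4% over all genes), both lower in AJ. With AJ and NOD fitted alone 5 were called, all lower (17.9%, beside 20.8% over all genes in that fit). Ccl19, which draws T cells and dendritic cells to lymphoid tissue, was at 0.111 to 0.668 CPM in AJ (median 0.445) and 0.45 to 10.8 CPM in NOD (median 1.59) (log2 fold change −3.18 ± 0.81 (SE), adjusted p = 0.00395) and shares reads. Its highest NOD values were 10.8 CPM in replicate 8 and 9.59 CPM in replicate 5, and lymph node markers summed to 170 and 112 CPM in these 2 libraries against 17.5 to 94.6 CPM in the other NOD libraries. The part of lymph node transcripts in this difference was not tested. Cxcl14, a chemokine made by stromal and epithelial cells, was at 6.83 to 15.1 CPM in AJ (median 8.35) and 9.52 to 56.6 CPM in NOD (median 26.5) (log2 fold change −1.75 ± 0.49 (SE), adjusted p = 0.00894). It was higher in the high-Xist libraries of both strains with no overlap, in NOD at 33.5 to 56.6 CPM against 9.52 to 19.6 CPM. With Xist as a covariate its log2 fold change was −1.50 (adjusted p = 0.00386).

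Some genes of fatty acid synthesis were called higher in AJ, through part of the AJ libraries. De novo lipogenesis turns acetyl-CoA into fatty acids under the control of SREBP-1c and ChREBP, the products of Srebf1 and Mlxipl. Of 20 genes on the list 7 were called higher in AJ and none lower, at a median of 0.68, beside 6.75% called higher over all genes. None of the 7 was called without AJ replicates 3 and 4. Their fold changes in that fit were still positive, from 0.52 for Fads1 to 1.03 for Fasn. With Xist added to that fit as a covariate, Mlxipl (0.96, adjusted p = 0.0257) and Fads1 were called.

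The 4 genes with separate ranges were Tkt, Mlxipl, Srebf1 and Fads1. Tkt, the pentose phosphate enzyme transketolase, was at 282 to 2725 CPM in AJ (median 475) and 188 to 270.4 CPM in NOD (median 253) (log2 fold change 1.74 ± 0.47 (SE), adjusted p = 0.00702). AJ libraries held 56 to 304 CPM of Mlxipl (median 84.2), against 34.9 to 48.4 CPM in NOD (median 44.2) (log2 fold change 1.46 ± 0.36 (SE), adjusted p = 0.00282). Srebf1 was at 240.0 to 379.9 CPM in AJ (median 289) and 147 to 229 CPM in NOD (median 195) (log2 fold change 0.71 ± 0.21 (SE), adjusted p = 0.0143), and the desaturase gene Fads1 at 137 to 247 CPM in AJ (median 158) and 106 to 128 CPM in NOD (median 115) (log2 fold change 0.61 ± 0.17 (SE), adjusted p = 0.012). Acly, ATP citrate lyase, overlapped between strains, with 353 to 6873 CPM in AJ (median 976) and 286 to 673 CPM in NOD (median 565) (log2 fold change 1.82 ± 0.61 (SE), adjusted p = 0.0359). So did Fasn, fatty acid synthase, at 4099 to 25462 CPM in AJ (median 10585) and 2262 to 5064 CPM in NOD (median 4244) (log2 fold change 1.49 ± 0.53 (SE), adjusted p = 0.0479), and Acss2, which activates acetate (log2 fold change 1.51 ± 0.49 (SE), adjusted p = 0.0289).

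AJ replicate 3 was the highest of the 15 libraries in all 7 genes, with Acly at 12.2 times the NOD median, Tkt at 10.8 times and Fasn at 6 times. AJ replicates 2 and 5, which lack the muscle transcripts, also stood above every NOD library in all 7 genes. AJ replicate 2 had Acly at 3.89 times and Tkt at 3.87 times the NOD median, and AJ replicate 5 had 1.73 and 1.88 times. AJ replicates 1, 6 and 8 were below the NOD median in Acly, at 0.787, 0.624 and 0.842 times the NOD median. Leaving out AJ replicate 3 alone ended the calls of Acly (0.92), Tkt (1.03), Acss2 (1.03), Fasn (1.12) and Fads1 (0.51). The calls of Fasn, Acly and Acss2 also ended in 11, 5 and 2 other fits that left out 1 library each, with fold changes of 1.40 to 1.56, 1.73 to 1.82 and 1.44 to 1.45. In AJ, Acly, Fasn, Tkt, Acss2 and Mlxipl were higher in the high-Xist libraries (replicates 2, 3 and 4) with no overlap. Acly was at 1385 to 6873 CPM there and at 352.5 to 975.8 CPM in the others. In NOD, Fasn and Srebf1 were lower in the high-Xist libraries, with Fasn at 2262 to 3966 CPM against 4522 to 5064 CPM, and the other genes overlapped. With Xist as a covariate Acly (1.28, adjusted p = 0.0958) and Fasn (1.19, adjusted p = 0.0549) were not called. Scd1, the desaturase whose transcript was the most abundant of those named here, was not called (log2 fold change −0.22 ± 0.19 (SE), adjusted p = 0.529).

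**Figure D4:**
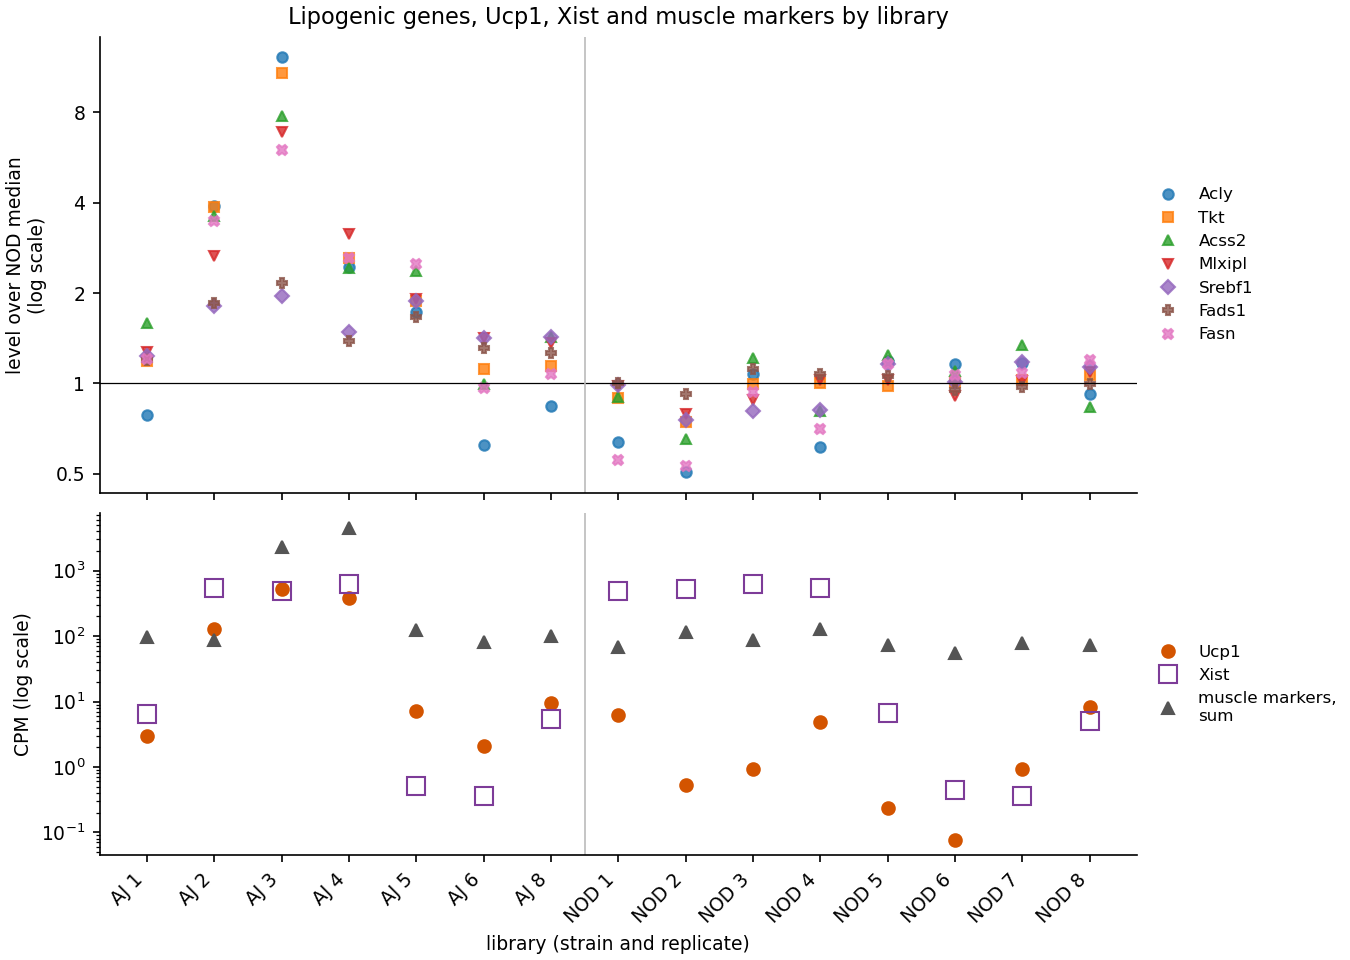
Top, the level of 7 lipogenic genes in each of the 15 libraries divided by the gene's NOD median (y axis, log scale). Bottom, CPM (log scale) of Ucp1 (filled circles), Xist (open squares) and summed muscle markers (triangles) in the same libraries. AJ replicate 3 stands highest in all 7 genes (Acly at 12.2), muscle markers stand out in AJ replicates 3 and 4, and Ucp1 in AJ replicates 2, 3 and 4.

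Ucp1, the uncoupling protein of brown and beige adipocytes, was high in 3 AJ libraries. It was at 126 CPM in AJ replicate 2, 518 CPM in AJ replicate 3 and 377 CPM in AJ replicate 4. The other 4 AJ libraries held 2.07 to 9.55 CPM and the NOD libraries 0.0774 to 8.13 CPM, so the ranges overlapped (log2 fold change 5.75 ± 1.59 (SE), adjusted p = 0.00842). The 3 high AJ libraries were the 3 with high Xist, but the 4 NOD libraries with high Xist had at most 6.21 CPM of Ucp1. The log2 fold change was 4.99 without AJ replicate 3, and without AJ replicates 3 and 4 the gene was not called (3.42, adjusted p = 0.147). With Xist as a covariate it was 3.32 (adjusted p = 0.0255). Of 18 thermogenic genes tested 2 were called, both higher in AJ (11.1%, near the 13.4% over all genes), and none without AJ replicates 3 and 4. None of 51 nuclear oxidative phosphorylation genes and none of 13 mitochondrially encoded genes was called in edgeR. With AJ and NOD fitted alone the counts were 0 and 1, beside 20.8% of all genes called in that fit.

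Of 24 genes tested for triglyceride synthesis and lipolysis 4 were higher in AJ and none lower, and 2 (Mogat2 and Agpat9) were called without AJ replicates 3 and 4. Their share, 16.7% and then 8.33%, was close to that over all genes (13.4% and 9.74%). Mogat2, a monoacylglycerol acyltransferase, was at 16.8 to 36.2 CPM in AJ (median 24.4) and 4.58 to 9.2 CPM in NOD (median 7.65) (log2 fold change 1.81 ± 0.33 (SE), adjusted p = 3.65e-05). AJ was the highest strain. Agpat9 ran from 125 to 177 CPM in AJ (median 157) and from 43.1 to 101 CPM in NOD (median 69.8) (log2 fold change 1.13 ± 0.25 (SE), adjusted p = 0.000586). Agpat9 is the older name of the glycerol-3-phosphate acyltransferase GPAT3, and it shares reads. Agpat2, the acyltransferase of the next step, passed narrowly (log2 fold change 0.94 ± 0.33 (SE), adjusted p = 0.0472), and its call ended in 8 of the 15 fits that left out 1 library, at 0.67 to 0.97, and in the fit with Xist as a covariate (0.86, adjusted p = 0.0576).

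Of 20 genes of fatty acid uptake and handling, 3 were higher in AJ and 2 lower, and without AJ replicates 3 and 4 these were 1 and 1, Angptl8 and Angptl4. The share called was 25% and then 10%, beside 13.4% and 9.74% over all genes. The counts were 4 and 4 with AJ and NOD fitted alone (40%, beside 20.8% over all genes in that fit). Angptl4 and Angptl8 encode secreted regulators of lipoprotein lipase, the former raised by fasting and the latter by feeding. AJ libraries held 2.38 to 19.2 CPM of Angptl8 (median 6.98), against 1.11 to 4.28 CPM in NOD (median 1.59) (log2 fold change 2.00 ± 0.44 (SE), adjusted p = 0.000652). Angptl4 stood at 547 to 708 CPM in NOD (median 617) and at 327 to 457 CPM in AJ (median 412) (log2 fold change −0.64 ± 0.15 (SE), adjusted p = 0.00191), with no overlap, and NOD was the highest of the 8 strains. Cd36, the fatty acid translocase, was lower in AJ (log2 fold change −0.46 ± 0.13 (SE), adjusted p = 0.00892), though not without AJ replicates 3 and 4 (−0.34, adjusted p = 0.112). Pparg, the master regulator of adipocyte differentiation, was higher, with 142 to 194 CPM in AJ (median 159) and 77.1 to 148 CPM in NOD (median 113) (log2 fold change 0.57 ± 0.16 (SE), adjusted p = 0.00962), and was not called without NOD replicates 6 and 8 (0.43, adjusted p = 0.085). Cd36 and Pparg were the 2 genes called among 23 mature adipocyte markers (8.7%, beside 13.4% over all genes). With AJ and NOD fitted alone 2 of these markers were higher and 3 lower (21.7%, beside the same 20.8%). Adipoq was not called (log2 fold change −0.37 ± 0.28 (SE), adjusted p = 0.452). Hk2, which traps glucose in the cell, was at 122 to 309.6 CPM in AJ (median 140.2) and 66.1 to 96.6 CPM in NOD (median 88.6) (log2 fold change 0.97 ± 0.25 (SE), adjusted p = 0.00493) and lost its call without AJ replicates 3 and 4 (0.69, adjusted p = 0.0901). Rbp7, a retinol-binding protein of adipose endothelium and fat, was lower in AJ, with 19.3 to 42.2 CPM in AJ (median 34.2) and 70.2 to 189 CPM in NOD (median 153) (log2 fold change −2.19 ± 0.32 (SE), adjusted p = 3.89e-07).

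**Figure D5:**
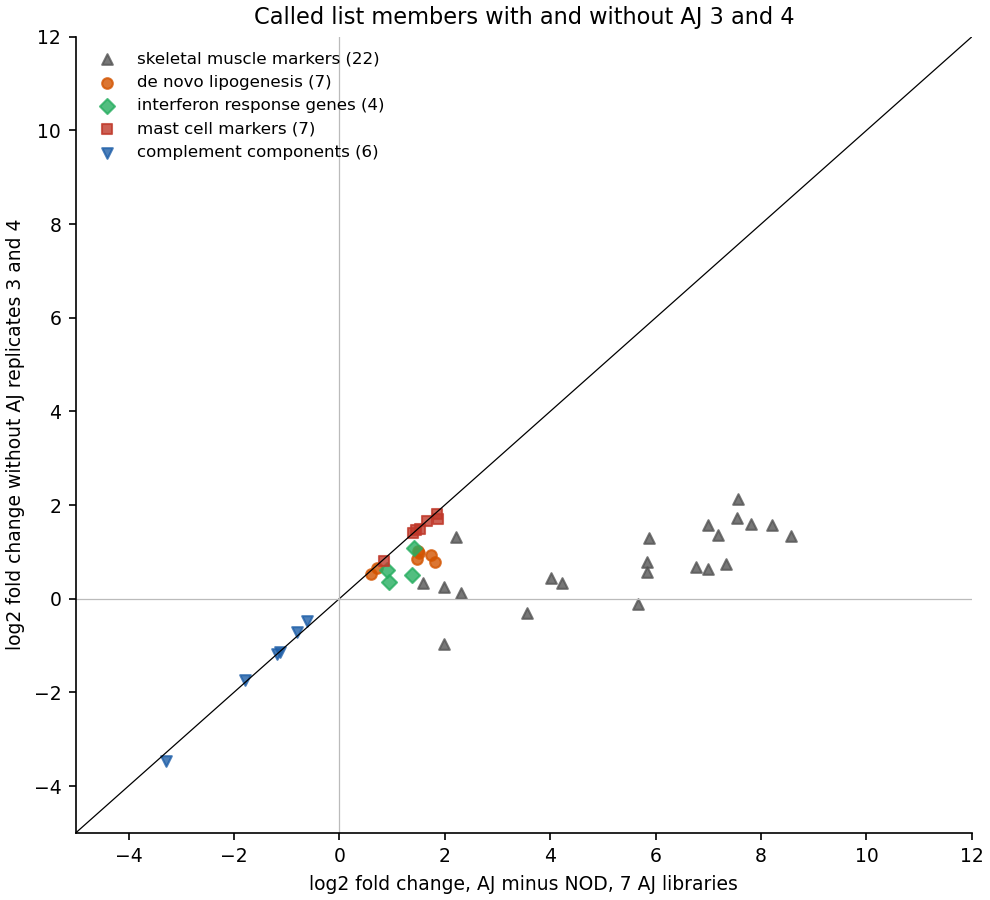
Log2 fold change, AJ minus NOD, of called list members with all 7 AJ libraries (x axis) and without AJ replicates 3 and 4 (y axis). The line marks equal values, near which the mast cell and complement genes lie, while the 22 muscle markers fall far below it, as with Myh4 at 8.57 and 1.33, and lipogenic genes such as Acly at 1.82 and 0.79 fall below it too.

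Muscle transcripts themselves made up part of the calls. Of 24 muscle markers tested 22 were called higher in AJ and none without AJ replicates 3 and 4. Myh4, a fast myosin heavy chain, went from 8.57 to 1.33, and the calcium pump gene Atp2a1 from 8.20 to 1.57. Ryr1, the calcium release channel of muscle, was at 102.9 and 191 CPM in these libraries and at 1.71 to 3.09 CPM in the other 5, against 0.536 to 1.47 CPM in NOD. Its ranges did not overlap, but without the 2 libraries it was uncalled (1.49, adjusted p = 0.143).

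Clock, matrix and metabolic genes outside these groups added single differences. Nr1d1 and Nr1d2 encode the REV-ERB receptors, repressors of the circadian clock. Nr1d1 was at 95.7 to 155 CPM in AJ (median 119) and 31.8 to 90.4 CPM in NOD (median 45.8) (log2 fold change 1.30 ± 0.35 (SE), adjusted p = 0.00651), and it overlaps Thra and shares reads. Nr1d2 ran from 45.5 to 75.2 CPM in AJ (median 57.3) and from 20.9 to 33.6 CPM in NOD (median 28.5) (log2 fold change 1.04 ± 0.27 (SE), adjusted p = 0.00442). Both had separate ranges, and they were the 2 genes called among 22 glucocorticoid and clock genes, beside 13.4% of all genes. Without AJ replicates 3 and 4 these 2 were higher and Cry1 and Sgk1 lower. With AJ and NOD fitted alone 7 were higher, the others being Bhlhe41, Dbp, Hlf, Tef and Zbtb16, and 2 were lower, Clock and Cry1. The share called in that fit was 40.9%, beside 20.8% over all genes. The time of day of sampling is not given in the labels. Thbs1, thrombospondin 1, is a matrix protein that activates TGF-beta. Thbs1 stood at 718 to 2569 CPM in NOD (median 1814) and at 114 to 442 CPM in AJ (median 285) (log2 fold change −2.62 ± 0.44 (SE), adjusted p = 1.19e-05), and NOD had the highest mean of the 8 strains, the next being 513 CPM in Cast.

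Bcat1, the cytosolic aminotransferase of branched-chain amino acids, was at 2.59 to 8.67 CPM in AJ (median 4.53) and 10.4 to 24.4 CPM in NOD (median 16.7) (log2 fold change −1.82 ± 0.41 (SE), adjusted p = 0.000836). Cyp2e1, a fat and liver cytochrome P450, was at 147 to 1063 CPM in AJ (median 257) and 835 to 2908 CPM in NOD (median 1619) (log2 fold change −2.14 ± 0.45 (SE), adjusted p = 0.000406). In AJ it was at 404 to 1063 CPM in the high-Xist libraries and at 147 to 257 CPM in the others, and in NOD these ranges overlapped. With Xist as a covariate the log2 fold change of Cyp2e1 was −2.27 (adjusted p = 0.000103). Liver markers summed to 2345 CPM in AJ replicate 8, one of the AJ libraries with low Xist and low Cyp2e1, and to 2230 CPM in NOD replicate 6. Their part in the Cyp2e1 difference was not tested. Gpx8, a peroxidase of the endoplasmic reticulum, was lower in AJ with no overlap (log2 fold change −1.09 ± 0.21 (SE), adjusted p = 0.000149). It was the 1 gene called among 27 glutathione and antioxidant genes (3.7%, beside 13.4% over all genes). With AJ and NOD fitted alone 1 of these 27 was higher and 2 were lower (11.1%, beside 20.8% over all genes in that fit).

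Candidate genes of NOD diabetes loci come from genetic crosses with that strain and mostly act in T cells and antigen presentation. Of 27 tested, 2 were higher in AJ and 1 was lower, at a median of −0.04. These 3 are 11.1% of the list, a share near the 13.4% over all genes. With AJ and NOD fitted alone 2 were higher and 3 lower (18.5%, near the 20.8% over all genes in that fit). Arntl2 ran from 1.07 to 2.36 CPM in AJ (median 1.63) and from 0.472 to 1.46 CPM in NOD (median 0.891) (log2 fold change 1.03 ± 0.26 (SE), adjusted p = 0.004), where Arntl2 is a clock-related transcription factor proposed for a locus on chromosome 6. Fcgr2b, the inhibitory Fc receptor, was at 34.9 to 47.4 CPM in AJ (median 37.3) and 15.6 to 26.3 CPM in NOD (median 22.3) (log2 fold change 0.83 ± 0.27 (SE), adjusted p = 0.0285), and Vav3, a guanine nucleotide exchange factor, at 11 to 16.6 CPM in AJ (median 12.8) and 17 to 22.4 CPM in NOD (median 18.5) (log2 fold change −0.50 ± 0.16 (SE), adjusted p = 0.0215). Neither of the last 2 was called without AJ replicates 3 and 4, and Fcgr2b shares reads. The Fcgr2b call also ended without AJ replicate 4 (0.79) or NOD replicate 7 (0.77), and the Vav3 call without AJ replicate 2 (−0.46) or AJ replicate 3 (−0.46). Ptpn22 (log2 fold change −0.69 ± 0.27 (SE), adjusted p = 0.0879), Cd101 (log2 fold change −0.83 ± 0.43 (SE), adjusted p = 0.216) and Ctla4 (log2 fold change −1.03 ± 0.45 (SE), adjusted p = 0.13), genes that restrain T cells, were not called.

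Called genes were spread over all autosomes, from 9.18% of tested genes on chromosome 8 to 17.7% on chromosome 4 and 16.7% on chromosome 17, which carries the MHC. In 339 windows of 5 Mb (megabases) with at least 20 tested genes, the median share called was 13%, and 14 windows exceeded 30%. The highest was at 175 to 180 Mb of chromosome 2 (24 of 53 genes, 45.3%). Of its called genes, all but Cdh4, Ppp1r3d and Fam217b had predicted, clone or other names that were passed over. Next came 125 to 130 Mb of chromosome 3 (13 of 32). The latter window held Alpk1, a kinase that senses bacterial sugars (log2 fold change 0.76 ± 0.18 (SE), adjusted p = 0.00131), and Enpep, an aminopeptidase of the angiotensin system (log2 fold change 0.65 ± 0.19 (SE), adjusted p = 0.0167), both higher in AJ. The Enpep call ended without AJ replicate 3 (0.56) or without NOD replicates 6 and 8 (0.61). On chromosome 4 the window at 145 to 150 Mb (27 of 69) held Rbp7. On the X chromosome 2 neighbouring windows, at 135 to 140 and 140 to 145 Mb, held 11 and 7 called genes, all lower in AJ. Genes of a window share inherited segments and are not independent.

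Set among all 8 founder strains, either AJ or NOD could be the strain that departed. In 840 of the 2490 called genes (33.7%) the AJ mean lay outside the range of the other 7 strain means, and in 795 (31.9%) the NOD mean did. Over all genes tested the shares were 15.8% and 15.4%. Calling a gene selects for AJ and NOD means that lie apart, so a higher share among called genes is built into this comparison. In 139 called genes both were the extremes, 1 at each end. Dysf, C6, Bst1 and Col4a6 were lowest in AJ, and Tcerg1l, Thbs1, Angptl4 and Cd59a highest in NOD. For Gabra3, Unc5a and Cyp2e1 other strains lay beyond both means at either end.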

How the data were processed

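Expected counts of 21169 genes in 61 libraries were deposited by the authors, with reads that fit several genes divided among them. Also deposited are log2 values that DESeq2's variance-stabilising transformation had made from them, per the submitters' processing notes and the file headers. The genome build is GRCm38, per the submitters' processing notes, and the aligner, the counting tool and the use of strand are not given in the sources used here. Of the expected counts 21.1% were not whole within 1e-06. Spreadsheet dates in place of symbols were put right in 23 genes. Of 46 identifiers that shared a symbol 11 were renamed with GENCODE M21 names. The count table held 0 columns of other samples.

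Expected counts were rounded, filtered by strain with filterByExpr (2566 genes set aside), normalised by TMM, and modelled with edgeR 4.0.16 (R 4.3.3) with 1 mean per strain over all 61 libraries and robust quasi-likelihood dispersion. The contrast was AJ minus NOD, 2-sided, with Benjamini-Hochberg adjustment over 18603 genes. A gene was said to share reads where its estimates were not whole in over 50% of libraries, which held for 4105 genes (22.1%). The members, the 43 gene lists (818 genes tested) and the tests were chosen with earlier results of these data known. Lists were described by counts and medians, with no set test.

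Named were the 12 genes with the largest fold change each way that were called, did not overlap and averaged 5 CPM or more in the higher strain, up to 4 called members per list and the called member farthest the other way, members of the 2 strain lists, the 6 genes with the smallest p, and up to 6 called genes of windows with a high share called. Predicted and clone names, receptor segments, Xist, Y chromosome genes and muscle markers were passed over by the rules on largest fold change, smallest p and windows. The text gives the named genes that matter most. Muscle markers, Gbp2b's neighbours and list members that were not called were added with their values known.

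The fit was tested on simulated data for AJ against NOD with 18603 genes. With a log2 change of 1 it found 64% of 100 genes, and with 0.5 it found 26% of 100. Unchanged genes made up 7.22% of its calls. In these data 200 of the 18603 genes were changed, whereas the fit called 13.4% of genes between AJ and NOD. Recovery with a larger share of changed genes was not tested. Tried as alternatives were no filter, a filter at 5 CPM, RLE size factors, DESeq2 1.42.0, limma 3.58.1 on the deposited log2 values, AJ and NOD alone, the replicate number as a block, Xist as a covariate, fits without AJ replicates 3 and 4, without genes that share reads, on autosomal genes, and without each of the 15 libraries. Fits without NOD replicates 6 and 8, and without AJ replicates 3 and 4 with Xist, were added after seeing the data. Precision is limited by 7 and 8 libraries of 33715941 to 48392024 counts, and ratios of few counts have exact 95% intervals for counting error. Motifs were searched in RefSeq promoter windows of 300 bases that span each start.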

Additional observations from a re-analysis of the deposited data

Results flagged for a closer look

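In 234 groups of libraries tested (117 named genes in 2 strains), 17 had 1 library far from the others on the log2 CPM scale, and chance alone flags about 1 in 20. NOD replicate 6, the library with male genital duct transcripts, was lowest in Adipoq (1010 CPM, next 1830), Thbs1 (718 CPM, next 1630), Acp5 (201 CPM, next 251) and Rbp7 (70.2 CPM), and highest in Ptpn22 (15.2 CPM, next 6.25). NOD replicate 7 was lowest in the class II genes H2-Aa (105 CPM, next 168) and H2-Ab1 (50.4 CPM, next 81.7), and highest in Hist2h2aa2 (140 CPM, next 118).

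In AJ, replicate 3 was highest in Hk2 (310 CPM, next 172) and lowest in Disp2 (18 CPM, next 50.9). AJ replicate 5 was lowest in H2-D1 (668 CPM, next 821), and AJ replicate 8 highest in C4a (7.38 CPM, next 1.83). Bst1 was lowest in NOD replicate 1 (3.56 CPM, next 5.62).

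The remaining 4 fell on genes near 0, where a few counts set the value. These were H2-Ea-ps in NOD replicate 8 (0.288 CPM, next 0.063), Nlrp1c-ps in NOD replicate 1 (0.0409 CPM), and Klra8 (0.0525 CPM) and Tcerg1l (0.0787 CPM) in AJ replicate 2, the last 3 with all other libraries of the strain at 0.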

How the results depend on the processing

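The number of genes called moved by more than 1.5 times under 2 settings. It was 3865 with AJ and NOD fitted alone, and 1538 with a filter at a mean of 5 CPM, which tested 11095 genes. Calls of at least 2-fold, 1086 as reported, were 300 with that filter and 264 in limma on the variance-stabilised values, a scale that compresses differences of low genes. The other settings gave 1812 to 2885 calls, and fits without 1 library gave 2109 to 2369 calls and 984 to 1086 calls of at least 2-fold. The share of calls higher in AJ ran from 46.7% to 52.3% over all settings. Of the 99 called genes named in the text 70 kept their call in every fit that tested them.

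The replicate numbers of AJ and NOD do not pair the libraries by the labels. Over 7 shared numbers the deviations of same-numbered libraries correlated at −0.06 to 0.333, and 2 of 7 AJ libraries were closest to the NOD library of their own number. With the number as a block 2381 genes were called, and among named genes the calls of Acly (1.30), Fasn (1.20), Agpat2 (0.90) and Ucp1 (4.30) were lost.

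Gbp2, which was not called, changed sign in limma (0.14) and in 4 fits without 1 NOD library, over a range of −0.093 to 0.074 in the fits without 1 library. Depth was similar in both strains, and genes under about 1 CPM, such as Fcer1a and Ms4a2, rest on few counts per library. Sex, age, depot and time of day are not in the labels, and their part in any difference was not tested beyond the fit with Xist, which called 2806 genes and ended the calls of Acly (1.28), Fasn (1.19) and Agpat2 (0.86). Without NOD replicates 6 and 8 the calls of Ifi44 (1.20), Iigp1 (1.29), Igtp (0.89), Ms4a2 (1.14), Acly (1.89), Fasn (1.62), Acss2 (1.49), Pparg (0.43), Naip1 (−2.21) and Enpep (0.61) ended. Of the named genes 26 lost their call without AJ replicates 3 and 4, and 19 did with Xist added to that fit as a covariate. Fcer1a, Cd59a, Mlxipl, Fads1, Hk2, Naip1 and Vav3 kept theirs in the latter.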

Other observations

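Sums of markers of other cells and tissues differed between the strains in a few lists, given here as values. The 11 nerve and Schwann cell markers in the table summed to 245 to 326 CPM in AJ (median 286) and 181 to 269 CPM in NOD (median 205). The ranges overlapped through NOD replicate 6 (269 CPM), which lay above AJ replicates 1, 6 and 8 (256, 245 and 258 CPM). The 2 pancreas markers in the table summed to 25 to 46.3 CPM in AJ and 9.42 to 27.3 CPM in NOD. Red blood cell genes summed to 767 to 2544 CPM in AJ and 1970 to 3010 CPM in NOD, where AJ replicate 1 was the AJ library within the NOD range. Endothelial markers summed to 1710 to 2270 CPM in AJ and 1700 to 2180 CPM in NOD, and extracellular matrix genes to 12700 to 23100 CPM and 16200 to 24200 CPM, both with overlapping ranges.

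The 15 libraries correlated across genes on the log2 CPM scale at a median r of 0.97 within a strain and 0.954 between strains. Genes are not independent replicates, and the highest value within a strain was 0.988.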
